A study of Mus musculus with 12 samples.

Results

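The genes described are 10 C-type lectin receptors of myeloid cells, Clec4a1, Clec4a2, Clec4a3, Clec4d, Clec4e, Clec4n, Clec5a, Clec7a, Clec10a and Mgl2. They were chosen by symbol, through the Ensembl identifier of each row, from the 55487 genes of the RNA-seq count tables, and 10 of 10 were found and passed the filter on low counts in both experiments. In the first experiment, bone marrow-derived macrophages (BMMs) from the limbs of C57BL/6 mice, labelled 8 weeks old, were compared between ovariectomized (OVX) mice, which lack the main source of estrogen, and sham-operated mice, with 3 libraries of each. In the second, mesenchymal stem cells (MSCs) from the limbs of C57BL/6 mice of the same labelled age were kept without treatment (MSC), co-cultured with RAW cells, a mouse macrophage leukemia line (MSC+RAW), or co-cultured with RAW cells that had been stimulated with lipopolysaccharide, a bacterial endotoxin (MSC+RAW-LPS), with 2 libraries of each. The labels do not say whether libraries of a group came from separate animals or cultures, so p-values measure only the spread between these libraries, which may be technical.

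C-type lectin receptors bind sugars, lipids or proteins of microbes and of dying cells through an extracellular lectin domain. Some signal through an immunoreceptor tyrosine-based activation motif (ITAM), carried by the receptor itself or by the adaptor FcRγ or DAP12, which recruits the kinase Syk and leads over Card9, Bcl10 and Malt1 to NF-κB. Others carry an inhibitory motif that recruits the phosphatases encoded by Ptpn6 and Ptpn11, and still others mainly take up glycoproteins.

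Of the 10 genes, 6 lie in 1 cluster on mouse chromosome 6 (GRCm38), with Clec4a4, Clec4b1 and Clec4b2 among them, from Clec4a1 at chr6:122921848-122934619 over Clec4a3, Clec4a2, Clec4n and Clec4d to Clec4e at chr6:123281789-123289870. Clec5a at chr6:40574894-40585821 and Clec7a at chr6:129461591-129472779 lie apart on the same chromosome, and Mgl2 at chr11:70130329-70137550 is the neighbor of Clec10a at chr11:70156197-70170834. Counts cover the exons of each gene, which overlap the exons of no other gene. The transcripts of Mgl2 share 12.24% of their 50-base words with Clec10a, and those of Clec10a share 8.49% with Mgl2. Clec4a2 shares 3.85% with Clec4a4 and Clec4n 0.69% with Gm44147, while the other 6 genes share no such word with any gene. The study's reads were paired and longer than such a word, so a shared word need not leave a read without a place. Uncertain placement at the read length used was not measured.

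Promoters of 8 of the 10 genes were at hand, with RefSeq starts on GRCm38.p6, each taken at the first start listed and running from 250 bases before to 50 bases after the start. Shown are the promoters of the genes with the largest rise and fall in the MSC experiment, Clec4e (chr6:123289822-123290121, minus strand) and Mgl2 (chr11:70130107-70130406, plus strand), of Clec4d (chr6:123261857-123262156, plus strand), the neighbor of Clec4e, and of Clec5a (chr6:40585756-40586055, minus strand), which was higher in OVX than in sham and lower in MSC+RAW-LPS than in MSC. Capitals mark matches, on either strand, to GAGGAA (the core of PU.1 sites), TTGCNNAA (C/EBP) and GAAANNGAA (interferon response).
Clec4e: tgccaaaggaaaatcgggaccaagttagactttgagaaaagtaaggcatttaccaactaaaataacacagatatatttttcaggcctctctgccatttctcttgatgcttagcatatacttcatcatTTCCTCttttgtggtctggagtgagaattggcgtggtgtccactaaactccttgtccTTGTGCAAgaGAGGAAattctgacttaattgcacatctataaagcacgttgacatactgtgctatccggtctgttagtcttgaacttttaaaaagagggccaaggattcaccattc
Clec4d: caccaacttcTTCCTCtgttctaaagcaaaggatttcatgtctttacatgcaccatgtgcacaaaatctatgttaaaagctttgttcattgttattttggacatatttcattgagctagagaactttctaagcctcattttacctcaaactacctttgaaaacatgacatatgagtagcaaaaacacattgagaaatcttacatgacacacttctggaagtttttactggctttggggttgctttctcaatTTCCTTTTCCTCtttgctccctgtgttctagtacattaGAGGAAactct
Clec5a: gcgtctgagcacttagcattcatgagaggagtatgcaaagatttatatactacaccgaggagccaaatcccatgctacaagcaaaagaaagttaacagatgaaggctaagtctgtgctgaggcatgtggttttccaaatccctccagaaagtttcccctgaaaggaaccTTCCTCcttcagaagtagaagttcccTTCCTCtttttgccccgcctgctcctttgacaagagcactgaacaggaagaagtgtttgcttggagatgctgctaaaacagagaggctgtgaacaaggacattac
Mgl2: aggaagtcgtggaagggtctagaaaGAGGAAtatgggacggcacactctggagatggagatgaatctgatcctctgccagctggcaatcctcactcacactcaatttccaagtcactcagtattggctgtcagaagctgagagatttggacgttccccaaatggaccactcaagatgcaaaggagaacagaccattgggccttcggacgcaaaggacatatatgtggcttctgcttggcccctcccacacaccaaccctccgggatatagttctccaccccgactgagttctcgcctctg
The letters GAGGAA stood in 6 of the 8 promoters and in 28.3% of all 32851 promoters of this length, which include further starts of the same gene. They also stood at the second start listed for Clec4a3, which is not among the 8. TTGCNNAA was found for Clec4e, against 10.8% of all promoters, and GAAANNGAA for Clec4d, against 8.56%, where its match overlaps a GAGGAA match. TGANTCA (AP-1), in 7.81% of all promoters, and TTCNNNGAA (STAT), in 8.3%, were each found for Clec4a2. An NF-κB motif, in 8.46% of all promoters, had no match in the 8 windows. Such matches describe letters only, and no binding was measured.

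Sequencing depth ran from 17012923 to 45367105 counts per library. Sham replicates 2 and 3, and both MSC+RAW libraries, differed by less than any other pair of libraries of a group. Their chi-square ratios to the sampling of independent counts were 2.81 and 3.26 at high counts, against 18.5 to 121. Because counts here are not single independent molecules, these 2 ratios do not show a difference beyond sampling noise. At low counts the MSC+RAW ratio of 3.11 was close to the 3.84 of OVX replicates 2 and 3. The ratios do not show agreement within sampling noise either, so counting each of the first 2 pairs as 1 sample was a choice. It leaves n = 2 for sham and n = 1 for MSC+RAW, and the main tests rest on it. Of 20 macrophage markers, 19 were above a level of 1 CPM (counts scaled to library size) in all OVX and all sham libraries, and all 20 were in all MSC, MSC+RAW and MSC+RAW-LPS libraries. The MSC libraries carried RNA of the pan-leukocyte gene Ptprc at 169 and 172 CPM and of the macrophage gene Csf1r at 1172 and 1063 CPM, while the summed level of 16 stromal markers was 3013 to 3164 CPM, below the 8594 to 9522 CPM in OVX. Markers of macrophages and of stromal cells were thus both present in libraries labelled as MSCs. Fewer macrophages and less RNA per macrophage cannot be told apart in bulk samples.

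In TPM, transcript shares that correct for gene length, Clec4n held the highest level of the 10 genes in MSC and MSC+RAW, Clec4e in MSC+RAW-LPS, Clec4d in OVX and Clec4a1 in sham. In sham, Clec4a1 lay above Clec4d within each library, at 907, 804 and 800 TPM against 872, 644 and 653 TPM, although the ranges over libraries overlapped. In OVX the order differed between libraries, with Clec4d at 820, 695 and 505 TPM and Clec4a1 at 575, 438 and 542 TPM. The summed TPM of the 10 genes was 1759 to 2336 in OVX, 2150 to 2730 in sham, 3044 to 3653 in MSC, 4974 to 5012 in MSC+RAW and 1528 to 1782 in MSC+RAW-LPS. The make-up of that sum separated the groups. Clec4e, at 2.60% to 2.80% of the summed TPM in MSC and 1.21% in MSC+RAW, made up 30.7% to 33.7% in MSC+RAW-LPS, and Clec4n went from 44.8% to 48.6% in MSC over 75.7% in MSC+RAW to 11% to 16.7% in MSC+RAW-LPS. In BMMs, the DCIR-type genes Clec4a1 and Clec4a2 held 33.2% to 37.4% and 17% to 18.3% in sham, and 22.6% to 30.8% and 12.7% to 13.4% in OVX.

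**Figure D1:**
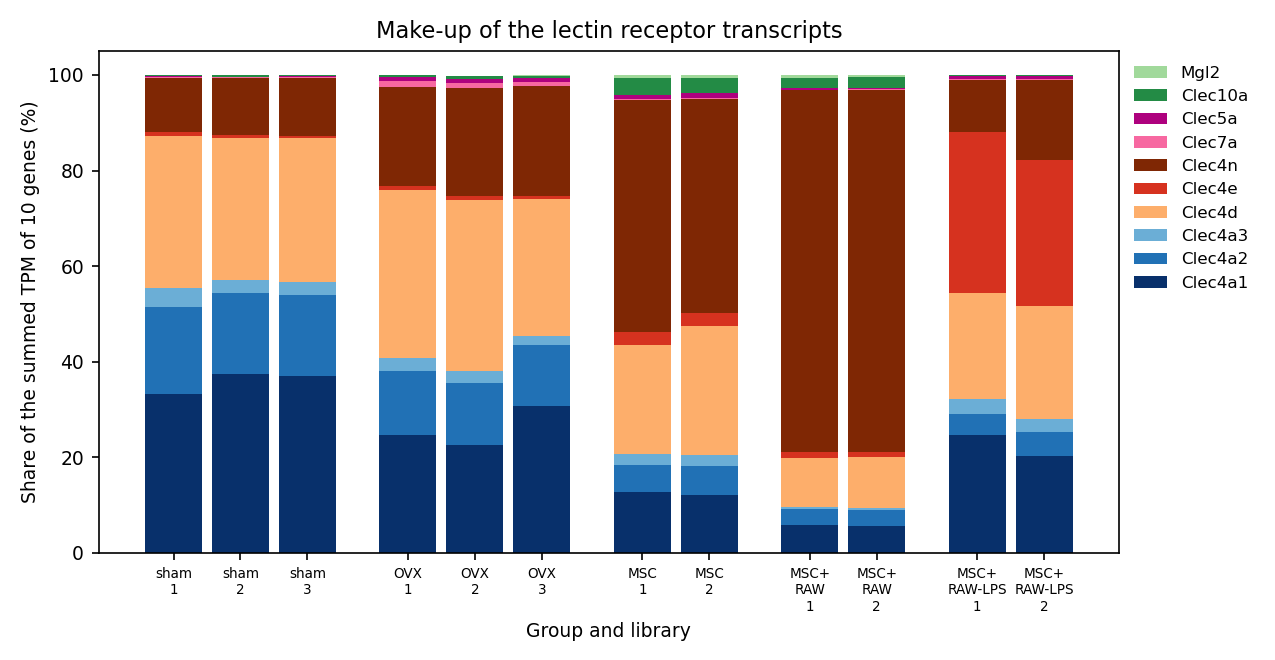
Stacked bars give the share of each gene, in percent, in the summed TPM of the 10 genes, with 1 bar per library, grouped by condition. Clec4n fills 75.7% of the bars of MSC+RAW, and Clec4e 30.7% to 33.7% of those of MSC+RAW-LPS.

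**Figure D2:**
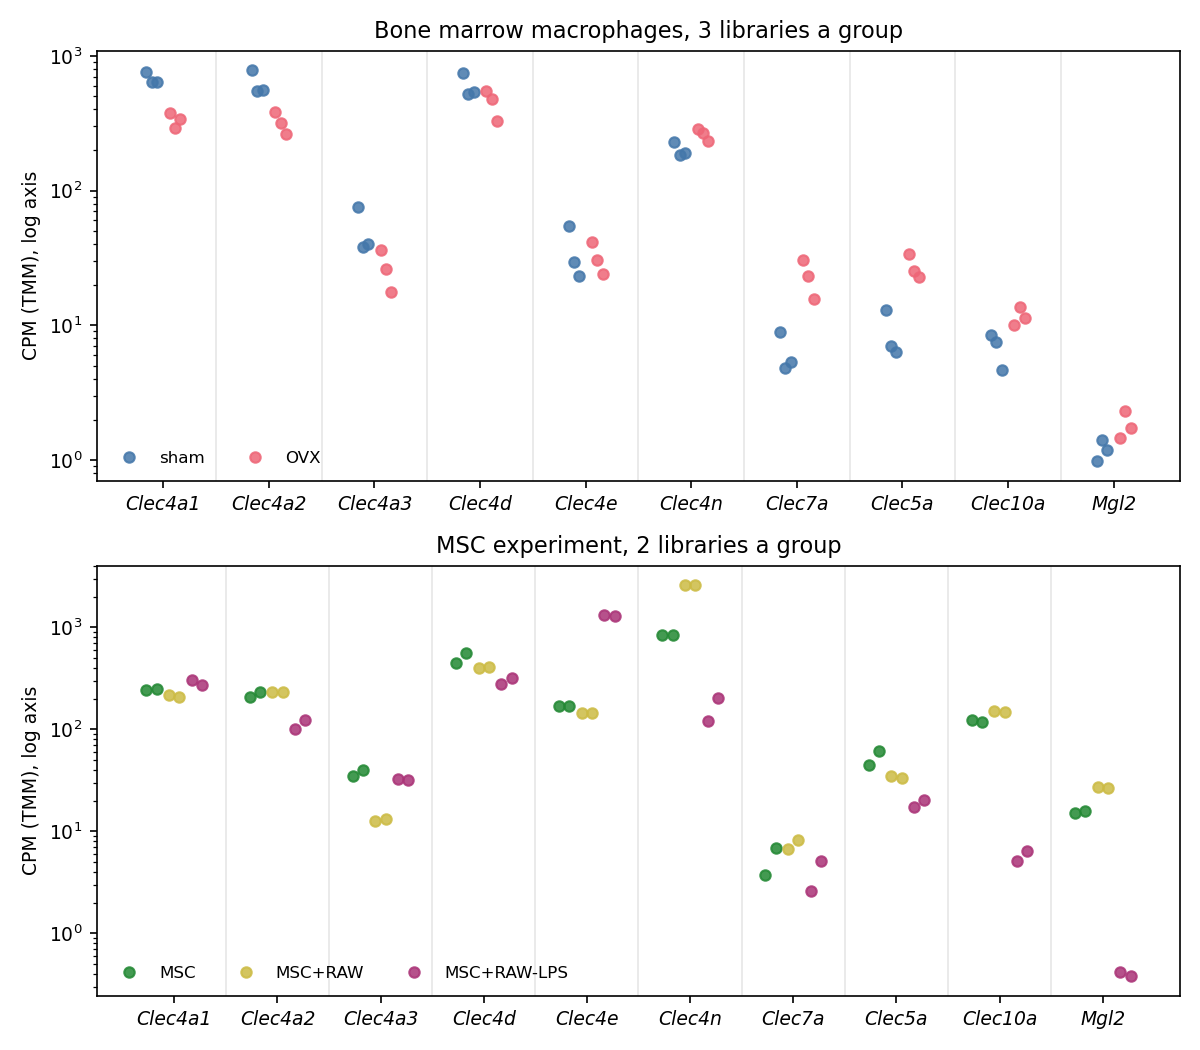
Points give the CPM of each gene on a log axis, 1 point per library, for BMMs (upper panel) and the MSC experiment (lower panel). Clec4e lies between 1305 and 1313 CPM in MSC+RAW-LPS, above all libraries of the other groups, while Clec10a and Mgl2 lie there below the MSC and MSC+RAW libraries.

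In BMMs, OVX was compared with sham to ask how estrogen loss changes the macrophage transcriptome. Clec5a and Clec7a were higher in OVX and Clec4a1 and Clec4a2 lower, so 4 of the 10 genes passed a limit of 2-fold and an adjusted p of 0.05, against 8.46% of the 16768 genes tested. Of all genes tested, 5.39% were higher and 3.08% lower. The median log2 fold change was -0.04 over the 10 genes and -0.01 over all genes. The CPM of the samples did not overlap between the groups for 8 of the 10, against 47.2% of all genes. Without the fold limit, the same number of the 10, 4, passed, against 13.1% of all genes.

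The DCIR-type genes encode receptors of the dendritic cell immunoreceptor family. Clec4a2 encodes DCIR itself, which carries an inhibitory motif in its tail, and Clec4a1 and Clec4a3 encode close relatives. Clec4a1 measured 373, 293 and 342 CPM in OVX replicates 1 to 3 and 752, 638 and 641 CPM in sham replicates 1 to 3. Clec4a2 measured 382, 316 and 264 CPM in OVX and 780, 546 and 553 CPM in sham. For both genes every OVX library lay below every sham library. Clec4a1 fell by 1.09 on the log2 scale (SE 0.18, adjusted p = 0.011), which is 2.12-fold. Clec4a2 fell by 1.08 (SE 0.22, adjusted p = 0.0199). Clec4a3, with 17.8 to 36.0 CPM in OVX and 37.8 to 75.6 CPM in sham, had a change of -1.13 that did not pass (SE 0.34, adjusted p = 0.0619) and that came to -0.61 without sham replicate 1, the highest library. It was called with DESeq2. Clec4a2 came to -0.999 and missed the 2-fold limit when all libraries were kept apart, and to -2.05 (adjusted p = 0.00145, edgeR) when trends on GC content and length were removed.

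Among the receptors that signal through an ITAM or an ITAM adaptor, Clec7a encodes dectin-1, the receptor of fungal β-glucans. Its level was 30.6, 23.2 and 15.7 CPM in OVX replicates 1 to 3 and 8.88, 4.83 and 5.39 CPM in sham replicates 1 to 3. Clec5a, which encodes the DAP12-coupled receptor MDL-1, measured 33.9, 25.5 and 23.0 CPM in OVX and 13.0, 7.03 and 6.29 CPM in sham. All OVX libraries lay above all sham libraries for both. The log2 fold change was 1.70 for Clec7a (SE 0.34, adjusted p = 0.0187), or 3.24-fold, and 1.46 for Clec5a (SE 0.31, adjusted p = 0.0221), or 2.75-fold. When trends of fold change on GC content and gene length were removed, both lost the call, at 0.99 for Clec7a and 0.66 for Clec5a.

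The neighbors Clec4d, Clec4e and Clec4n encode the receptors MCL and Mincle, which bind mycobacterial glycolipids, and dectin-2, which binds fungal mannans. None of the 3 passed the test between OVX and sham. Clec4d measured 328 to 545 CPM in OVX and 524 to 742 CPM in sham (-0.53, adjusted p = 0.193), and Clec4e 24.1 to 41.5 and 23.4 to 54.4 CPM (-0.36, adjusted p = 0.499), so the groups overlapped. Clec4n measured 232, 268 and 285 CPM in OVX, just above 185 to 231 CPM in sham (0.29, adjusted p = 0.34). The galactose-type lectins Clec10a and Mgl2, which serve uptake of glycoproteins, were low in BMMs. Clec10a lay at 10.1 to 13.7 CPM in OVX and 4.63 to 8.43 CPM in sham (0.68, adjusted p = 0.108), and Mgl2 at 1.45 to 2.31 and 0.981 to 1.41 CPM (0.66, adjusted p = 0.283).

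Calls between OVX and sham depended on single libraries. By edgeR, 0 of the 10 genes and 309 genes in all were called without OVX replicate 2, and 2 and 678 without OVX replicate 1. With all libraries it was 4 and 1419. Without OVX replicate 2, 5 of the 10 had an unadjusted p under 0.05, and the share of all genes under it was not computed. Without sham replicate 1, which leaves 1 sham sample, the log2 fold changes of the 10 genes shifted by -0.21 to 0.58. The summed level of the 20 macrophage markers moved with the comparison, from 63246 to 71033 CPM in sham to 48934 to 53351 CPM in OVX (16502 to 18520 CPM and 11831 to 12691 CPM without Lyz2), and 3 of the 20 were called lower and 0 higher, by edgeR and by DESeq2, with 10 lower and 1 higher at an unadjusted p under 0.05. With library sizes taken from these markers, which raised the 10 genes by a median of 0.45 on the log2 scale, Clec4a1 (-0.64) and Clec4a2 (-0.63) were no longer called and Clec10a (1.14) was. The 10 neutrophil markers summed to 1227 to 1362 CPM in OVX and 838 to 926 CPM in sham, and 0 of the 10 were called by edgeR and 1 by DESeq2, with 5 at an unadjusted p under 0.05. Dendritic cell markers were low, summing to 14.3 to 17 CPM in OVX and 27.5 to 30.4 CPM in sham, with 2 of 5 tested called lower. B cell markers summed to 8.65 to 9.57 CPM in OVX and 19.5 to 23.2 CPM in sham, and 2 of 5 were called lower. The 16 stromal markers summed to 8594 to 9522 CPM in OVX and 7522 to 8570 CPM in sham, with 2 called higher and 1 lower. The part of any of these cell types in the differences of the lectin genes was not tested beyond these values.

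Among the partners of these receptors, 2 of 6 adaptors and inhibitory phosphatases were lower in OVX and 0 higher by edgeR and by DESeq2, with 4 lower and 0 higher at an unadjusted p under 0.05. The median log2 fold change of the list was -0.76, beside -0.01 over all genes. Those called were Ptpn6, which encodes the phosphatase SHP-1 that inhibitory lectins recruit (-1.12, adjusted p = 0.00952), and Fcer1g, which encodes FcRγ (-1.005, adjusted p = 0.0393). Of 16 genes of downstream signaling, 5 were lower and 0 higher by edgeR and by DESeq2, with 10 lower and 0 higher at an unadjusted p under 0.05 and a median of -0.78. Among them were the exchange factor gene Vav1 (-1.42, adjusted p = 0.00793), Syk (-1.27, adjusted p = 0.00956) and the Src-family kinase gene Fgr (-1.21, adjusted p = 0.00668). Of all genes, 8.46% were called. These counts also depended on single libraries. Without OVX replicate 2, 0 of the 6 and 1 of the 16 were called. Leaving out OVX replicate 1 gave 1 and 4, and leaving out OVX replicate 3 gave 1 and 5. Of 15 other myeloid C-type lectin genes tested, 2 were higher and 1 lower, with a median of -0.28. Mrc1, the mannose receptor, rose from 48.7 to 51.3 CPM in sham to 177 to 253 CPM in OVX (2.004, adjusted p = 0.00453), Ly75 rose by 1.21 (adjusted p = 0.0103), and Clec4b1, a gene of the chromosome 6 cluster, fell by 1.17 (adjusted p = 0.0228).

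In the MSC experiment, MSC+RAW-LPS was compared with MSC and with MSC+RAW to ask what inflamed macrophages do to MSCs. Clec4e rose and Clec4n, Clec10a and Mgl2 fell in MSC+RAW-LPS against both other groups. Against MSC, 5 of the 10 genes were called, 1 higher and 4 lower, where 10.9% of 20499 genes tested were called (5.85% higher and 5.09% lower). Against MSC+RAW, 6 were called, 2 higher and 4 lower, where 27.4% were called (15.4% higher and 12% lower). The median log2 fold change of the 10 genes was -0.86 against MSC and -0.93 against MSC+RAW, where the medians of all genes were -0.01 and 0.14. Without the fold limit, 7 of the 10 passed in each comparison, against 20.9% and 40.2% of all genes. Samples did not overlap for 9 of the 10 against MSC and 10 of the 10 against MSC+RAW, where 57.6% and 84.8% of all genes did not. Both comparisons share the MSC+RAW-LPS libraries, and the single MSC+RAW sample was assumed to vary like the other groups.

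Clec4e, the gene of Mincle, measured 1313 and 1305 CPM in the MSC+RAW-LPS libraries, 171 and 170 CPM in MSC and 146 and 145 CPM in MSC+RAW. The libraries within each group differed by under 10 CPM, while MSC+RAW-LPS stood apart from both other groups. The log2 fold change was 2.95 against MSC (SE 0.16, adjusted p = 1.74e-09), or 7.74-fold, and 3.14 against MSC+RAW (SE 0.21, adjusted p = 3.53e-08). Its neighbor Clec4d, whose product MCL pairs with Mincle at the cell surface, did not rise with it. It measured 277 and 321 CPM in MSC+RAW-LPS, 449 and 567 CPM in MSC and 404 and 413 CPM in MSC+RAW. Against MSC the difference of -0.76 had an adjusted p of 0.00343 but was under the 2-fold limit, and against MSC+RAW it was -0.48 (adjusted p = 0.0637). As a ratio of TPM, Clec4e to Clec4d was 0.0964 to 0.122 in MSC, 0.113 to 0.116 in MSC+RAW and 1.31 to 1.52 in MSC+RAW-LPS.

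Clec4n, the gene of dectin-2, had the widest range of the ITAM-coupled receptors. It measured 850 and 837 CPM in MSC, 2598 and 2590 CPM in MSC+RAW and 122 and 203 CPM in MSC+RAW-LPS. The groups did not overlap, and the MSC+RAW-LPS libraries differed more from each other than the libraries of the other groups did. The gene fell by 2.37 against MSC (SE 0.21, adjusted p = 5.09e-07) and by 4.03 against MSC+RAW (SE 0.24, adjusted p = 9.03e-09). Clec4n was also 1 of 2 genes called between MSC+RAW and MSC, where it rose by 1.66 (SE 0.23, adjusted p = 0.000285), with 16.4% of all genes called in that comparison, 6.8% higher and 9.59% lower. Without the fold limit, 3 of the 10 passed there, against 28.6% of all genes, and 9 of the 10 did not overlap, against 86% of all genes.

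Clec5a measured 45.3 and 61.3 CPM in MSC, 34.8 and 33.2 CPM in MSC+RAW and 17.4 and 20.3 CPM in MSC+RAW-LPS. It fell by 1.49 against MSC (SE 0.18, adjusted p = 1.99e-05), while against MSC+RAW the difference of -0.89 stayed under the 2-fold limit (adjusted p = 0.00394). With trends on GC content and length removed, Clec5a (-1.74), Clec4d (-1.28) and Clec7a (-1.68) were called lower against MSC+RAW. Clec7a was the lowest of the ITAM-coupled genes here, at 3.71 and 6.94 CPM in MSC, 6.65 and 8.18 CPM in MSC+RAW and 2.59 and 5.07 CPM in MSC+RAW-LPS. The MSC libraries overlapped those of MSC+RAW-LPS, and with TMM library sizes, all libraries in the fit and no block or GC correction it passed in none of the 3 comparisons. With the libraries apart and a suffix that 1 column name of each group carries as a block, it was called lower in MSC+RAW-LPS than in MSC+RAW (-1.03, adjusted p = 0.00321, edgeR). It was also called there without the second MSC+RAW-LPS library (-1.54) and without the first MSC+RAW library (-1.11).

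The galactose-type lectins showed the largest falls of the 10 genes. Clec10a measured 124 and 118 CPM in MSC, 150 and 148 CPM in MSC+RAW and 5.17 and 6.41 CPM in MSC+RAW-LPS. Mgl2 measured 15.1 and 16.0 CPM in MSC, 27.0 and 26.6 CPM in MSC+RAW and 0.421 and 0.381 CPM, or 14 and 12 counts, in MSC+RAW-LPS. Every MSC+RAW-LPS library lay below every other library of the experiment for both. Clec10a fell 20.7-fold against MSC (log2 -4.37, SE 0.18, adjusted p = 1.15e-10) and 26.4-fold against MSC+RAW (-4.72, SE 0.20, adjusted p = 2.52e-10). Mgl2 fell 38.2-fold against MSC (-5.25, SE 0.28, adjusted p = 1.5e-09) and 68-fold against MSC+RAW (-6.09, SE 0.30, adjusted p = 1.2e-09). Mgl2 was higher in MSC+RAW than in MSC by 0.83, under the 2-fold limit (adjusted p = 0.0155), and Clec10a by 0.35 (adjusted p = 0.168).

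The DCIR-type genes moved less. Clec4a1 measured 302 and 270 CPM in MSC+RAW-LPS, 244 and 249 CPM in MSC and 218 and 208 CPM in MSC+RAW, and it passed in none of the 3 comparisons with TMM library sizes. With library sizes taken from macrophage markers it was called higher in MSC+RAW-LPS, at 1.17 against MSC and 1.72 against MSC+RAW. Clec4a2 measured 101 and 123 CPM in MSC+RAW-LPS, 207 and 234 CPM in MSC and 232 and 234 CPM in MSC+RAW. It fell by 1.09 against MSC+RAW (SE 0.19, adjusted p = 0.000285), and its -0.97 against MSC was just under the limit (adjusted p = 0.000322). Without the first MSC+RAW-LPS library the fall against MSC+RAW was 0.94 and was not called, and with trends on GC content and length removed it was 2.07. Against MSC it was called without the first MSC library (-1.06) and without the second MSC+RAW-LPS library (-1.12). Clec4a3 differed in MSC+RAW, with 12.7 and 13.1 CPM against 34.9 and 40.4 CPM in MSC and 32.7 and 32.2 CPM in MSC+RAW-LPS. Its log2 fold change between MSC+RAW and MSC was -1.51 (SE 0.21, adjusted p = 0.000293) and that between MSC+RAW-LPS and MSC+RAW was 1.30 (SE 0.21, adjusted p = 0.000189). Both calls ended when trends on GC content and length were removed, at -0.75 and 0.51.

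**Figure D3:**
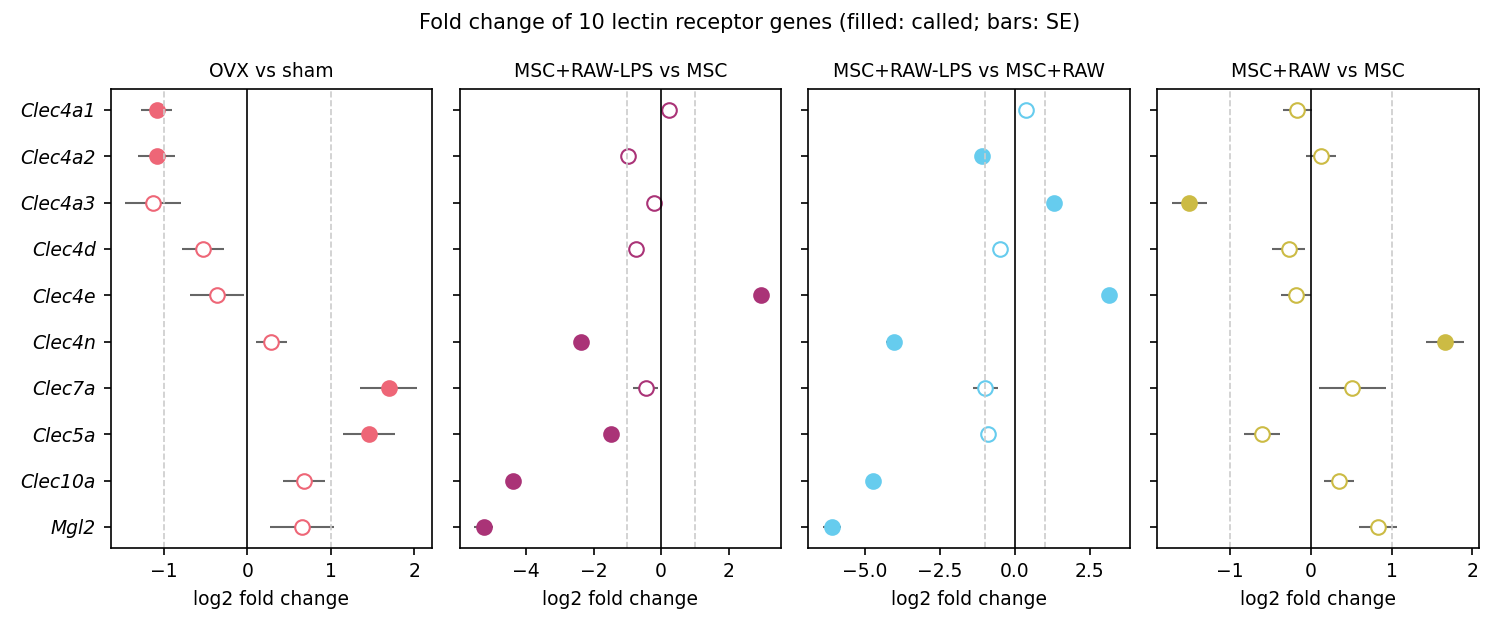
Log2 fold changes of the 10 genes with their SE (bars) in the 4 comparisons, filled where called, with dashed lines at the 2-fold limit and a separate x axis for each panel. Clec4e reaches 2.95 and 3.14 in the MSC+RAW-LPS comparisons, while Mgl2 reaches -5.25 and -6.09.

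In the chromosome 6 cluster, neighbors took different directions in the MSC experiment. Between MSC+RAW-LPS and MSC, Clec4n (-2.37) and Clec4e (2.95) lie on either side of Clec4d (-0.76). Between OVX and sham the first 5 genes tested of the cluster, Clec4a1, Clec4a3, Clec4a4, Clec4b1 and Clec4a2, all had log2 fold changes below -1, of which 3 passed the test. Of all genes, 3.08% were called lower, and the share below -1 was not computed. Over 17 alternative settings Clec4a1 ranged from -1.44 to -0.53, Clec4a2 from -2.05 to -0.53 and Clec4a3 from -1.76 to -0.57. Clec4a4 was at 0.477 to 3.4 TPM in the BMM samples.

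**Figure D4:**
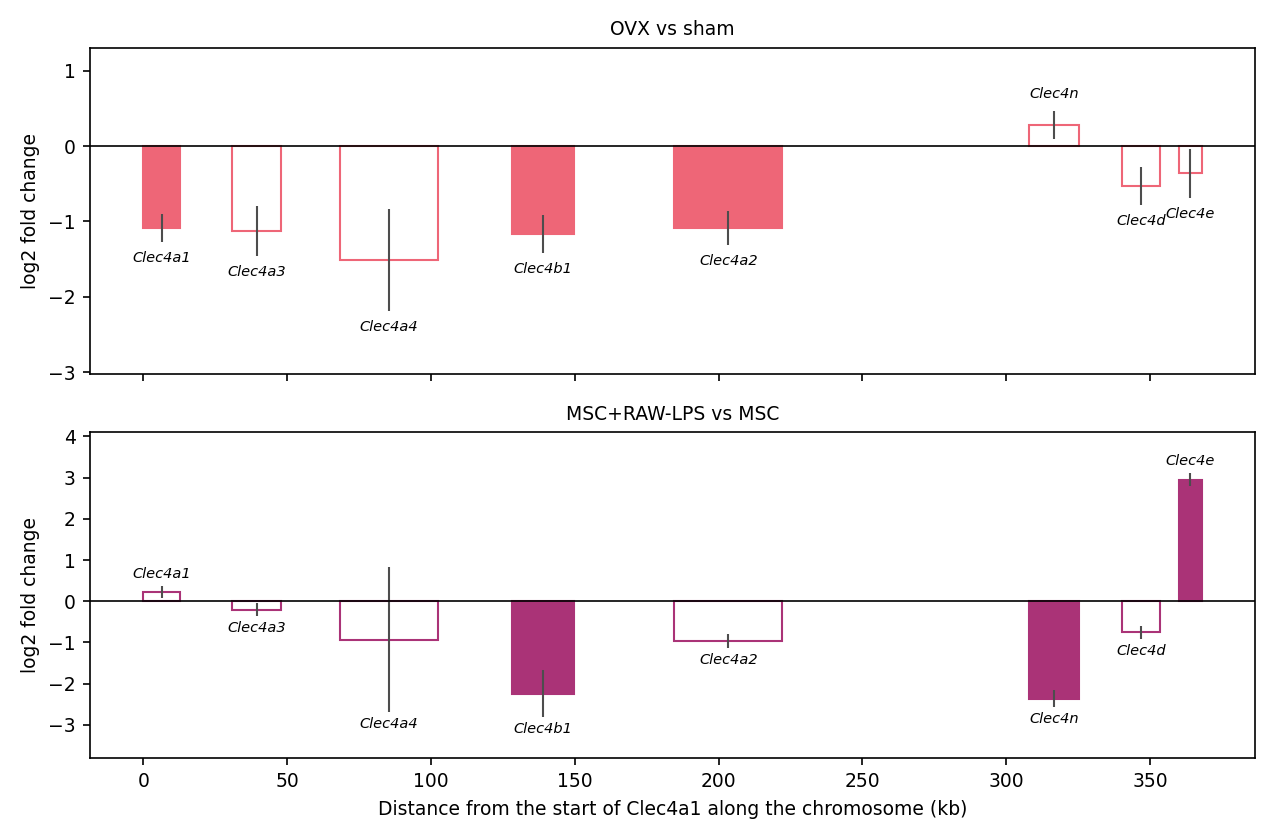
Bars give the log2 fold change of each Clec gene tested in the cluster, drawn from the start to the end of the gene in kb from the start of Clec4a1, with lines for the SE and fill where called, for OVX against sham (upper) and MSC+RAW-LPS against MSC (lower). The bars of Clec4n and Clec4e point in opposite directions in the lower panel.

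Markers of macrophages moved with these comparisons. The 20 markers summed to 32808 to 32852 CPM in MSC, 41388 to 42024 CPM in MSC+RAW and 16766 to 17256 CPM in MSC+RAW-LPS. More than any other marker, Lyz2 made up these sums, and without it they were 10981 to 11107 CPM, 15279 to 15475 CPM and 7301 to 7599 CPM. In MSC+RAW-LPS, 9 of them were called lower and 1 higher against MSC, and 10 lower and 4 higher against MSC+RAW. The 16 stromal markers went the other way in their sum, from 3013 to 3164 CPM in MSC and 2695 to 2735 CPM in MSC+RAW to 4407 to 4417 CPM in MSC+RAW-LPS. In MSC+RAW-LPS, 7 of the 16 were called higher and 2 lower by edgeR against MSC+RAW, and 4 higher and 0 lower against MSC by edgeR and by DESeq2, with 8 higher and 2 lower at an unadjusted p under 0.05. The labels call all 6 libraries MSCs and do not say whether RAW cells were removed before RNA was taken. The study's methods describe a porous membrane (Transwell) between both cell types for other assays and do not state it for RNA-seq, so RNA of the MSCs and RNA of the RAW cells cannot be told apart in the co-cultures. With library sizes taken from these markers, which raised the 10 genes by a median of 0.94 against MSC and 1.33 against MSC+RAW, Clec4e, Clec4n, Clec10a and Mgl2 kept their direction and their call in both comparisons, at 3.89, -1.43, -3.44 and -4.32 against MSC. Clec5a lost its call against MSC (-0.55), Clec4a2 lost its call against MSC+RAW (0.24), and Clec4a1 gained one in both comparisons. Without Lyz2 among the markers, Clec4a1 was called against MSC+RAW (1.47) and not against MSC (0.78). Of 10 neutrophil markers, Elane, Ltf and Retnlg were at 0 in both MSC+RAW-LPS libraries, and the list summed to 403 to 580 CPM there, most of it S100a8 (342 and 514 CPM), against 18.3 to 23.4 CPM in MSC. Of the 4 neutrophil markers tested, 3 were called higher against MSC. Camp rose from 0.722 and 0.471 CPM to 28.7 and 39.5 CPM, and Mmp8 from 6.48 and 7.0 CPM to 32.6 and 26.3 CPM. Dendritic cell markers summed to 58.9 to 63.2 CPM in MSC, 92.0 to 93.3 CPM in MSC+RAW and 59.0 to 63.2 CPM in MSC+RAW-LPS, and Siglech was at 0 in all 3 groups. Mast cell and basophil markers summed to 43.7 to 50.5 CPM in MSC, 80.4 to 82.5 CPM in MSC+RAW and 105 to 114 CPM in MSC+RAW-LPS, most of it Mcpt8 (103 and 112 CPM in MSC+RAW-LPS), and 1 of 4 tested was called higher in MSC+RAW-LPS than in MSC. The part of changes in cell make-up in the lectin results was not tested beyond these values.

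Of the 6 adaptor and phosphatase genes, 0 were called between MSC+RAW-LPS and MSC by edgeR and by DESeq2, with 5 at an unadjusted p under 0.05 and a list median of -0.15. In the comparison with MSC+RAW, where their median was -0.73, 2 were lower, Tyrobp, which encodes DAP12 (-2.18, adjusted p = 6.47e-07), and Hcst, which encodes DAP10 (-2.39, adjusted p = 3.19e-07), and both were higher in MSC+RAW than in MSC, by 1.67 (adjusted p = 0.00013) and 1.42 (adjusted p = 0.000262). Of the 16 signaling genes, 4 were higher and 1 lower against MSC, with a median of 0.58. Of all genes, 10.9% were called against MSC, 27.4% against MSC+RAW and 16.4% between MSC+RAW and MSC. Malt1, a partner of Card9 and Bcl10, measured 134 to 162 CPM in MSC+RAW-LPS and 17.8 to 18.7 CPM in MSC (3.03, adjusted p = 2.66e-09). Fgr (1.72, adjusted p = 1.67e-05) was also higher and Vav3 lower (-1.91, adjusted p = 6.84e-07). Against MSC+RAW, 5 were higher and 1 lower, with a median of 0.53, among them Malt1 (3.78, adjusted p = 1.28e-08), the NF-κB subunit gene Rel (2.63, adjusted p = 1.31e-06), Fgr (1.80, adjusted p = 9.11e-05) and Lyn (1.48, adjusted p = 8.42e-05). Rel (-1.49, adjusted p = 0.000495) and Lyn (-1.32, adjusted p = 0.00066) were the 2 of 16 called between MSC+RAW and MSC, both lower in MSC+RAW.

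Of 17 other myeloid C-type lectins tested, 3 were higher and 2 lower in MSC+RAW-LPS than in MSC, and against MSC+RAW, by edgeR. By DESeq2, 3 were higher and 1 lower against MSC, and 4 higher and 1 lower against MSC+RAW. Their medians were -0.05 and 0.16. By edgeR, 10.9% of all genes were called against MSC and 27.4% against MSC+RAW. Mrc1 measured 590 to 595 CPM in MSC, 294 CPM in MSC+RAW and 4.0 CPM in MSC+RAW-LPS, a log2 fold change of -7.20 against MSC (adjusted p = 1.66e-12). Olr1, the receptor of oxidized low-density lipoprotein, rose from 0.165 to 0.206 CPM in MSC to 8.18 to 9.56 CPM in MSC+RAW-LPS (5.59, adjusted p = 6.26e-08). Cd302 was higher than in MSC by 1.17 (adjusted p = 0.000387) by edgeR. Clec4b1 was called lower than in MSC by edgeR (log2 fold change -2.24, adjusted p = 0.00887) and not by DESeq2 (adjusted p = 0.256), and its MSC+RAW-LPS libraries lay far apart, at 0.271 and 2.51 CPM. Between MSC+RAW and MSC, 0 of the 17 were called by edgeR and by DESeq2, with 8 at an unadjusted p under 0.05 in edgeR.

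Across 10 samples of both experiments, each centered on its own mean, the genes with profiles most like Clec4e among 16239 genes were Mmp13 (Pearson r 0.9956), Cxcl10 (0.9924), Snx18 (0.9905), Trem3 (0.9897) and Nfkb1 (0.9895). For Clec10a they were Hacd4 (0.9935), H19 (0.9923), AU022793 (0.9912), Igf1 (0.9912) and Gas6 (0.9908), and for Clec4a2 Anxa4 (0.9779), Mipep (0.9734), Cds2 (0.9628), Fmo1 (0.9602) and Kcnk6 (0.9589). These values describe likeness over samples that share their groups, and no p was computed.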

How the data were processed

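RNA-seq was measured in 6 BMM and 6 MSC libraries. According to the methods and the submitters' processing notes, the authors trimmed read pairs with Trim Galore 0.6.7, mapped them to GRCm38 with HISAT2 2.1.0 and assigned them to Ensembl genes with featureCounts 2.0.1. The deposited tables hold raw counts for each gene in each library, without normalization or filters. The strand setting and the handling of read pairs are not given in the sources used here. Between 60.0% and 71.4% of counts of 1 to 20 were even, so counts are not single independent molecules. All columns of values were used.

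Of the 55487 genes, 55141 received a symbol and coordinates from the GENCODE annotation (GRCm38). The 10 genes and all gene lists were chosen with earlier results of these data known. Groups were compared with edgeR 4.0.16 (R 4.3.3), after TMM normalization and filterByExpr, by its two-sided quasi-likelihood F-test, and p was adjusted by Benjamini-Hochberg over all genes tested. A gene was called at a log2 fold change of at least 1 in size and an adjusted p of at most 0.05. One fit covered the 3 MSC groups. In each of the 2 closest pairs of libraries (sham 2 and 3, both MSC+RAW), counts were summed for the fit and CPM averaged for levels. The chi-square between the counts of such a pair was divided by its value under sampling of independent counts alone. It was 2.48 and 2.81 for low and high counts of the sham pair and 3.11 and 3.26 for the MSC+RAW pair. The other pairs had 3.84 to 6.99 and 18.5 to 121. TPM used the exon length in the tables.

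The rule for names took all 10 receptors, up to 4 called genes of largest change per list and comparison at a mean of 1 CPM or more, and the 5 genes of most similar log2 CPM (prior count 2) for Clec4e, Clec4a2 and Clec10a. One gene that the rule names is not reported here. Neutrophil and macrophage markers and Clec4a4 are named beside the results they touch and were picked after their values were seen. Alternatives were RLE, DESeq2 1.42.0, other filters, no fold limit, libraries kept apart or blocked, each library left out, fold changes freed of their lowess trends (span 0.3) on GC and length, known for 99.4% of genes, and library sizes from macrophage markers. Simulated data were fitted for OVX against sham and MSC+RAW-LPS against MSC, and not for the comparisons with MSC+RAW. Their outcome is not given here. Tables and figures used python 3.11.15, pandas 2.3.3 and matplotlib 3.10.9.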

Additional observations from a re-analysis of the deposited data

How the results depend on the processing

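Clec4e, Clec4n, Clec10a and Mgl2 kept their direction and call in all 17 alternatives of both MSC+RAW-LPS comparisons, with log2 fold changes against MSC of 2.90 to 3.89, -2.78 to -1.43, -4.54 to -3.44 and -5.35 to -4.32. Clec4n also kept both between MSC+RAW and MSC (1.14 to 2.11). Calls between OVX and sham were the least stable. Leaving out 1 library at a time gave 0 to 4 of the 10 genes called and 309 to 2390 genes in all, where 1419 were called with all libraries. Clec4e then ranged from -0.59 to 0.22 in that comparison, positive without sham replicate 1, and Clec7a from -1.03 to 0.063 between MSC+RAW-LPS and MSC, positive without MSC replicate 2. For each value below that changed with a setting, the cause was not tested.

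With no fold limit, 2193 genes were called between OVX and sham, 4286 between MSC+RAW-LPS and MSC (2243 with the limit) and 5862 between MSC+RAW and MSC (3360 with it). With trends on GC content and length removed, 590 were called between OVX and sham, of which 37.3% were higher, against 63.6% before, and 2165 between MSC+RAW and MSC, of which 52.0% were higher, against 41.5%. Clec4a3 (-1.76) and Clec4d (-1.26) were then called between OVX and sham, Clec4d (-1.28), Clec5a (-1.74) and Clec7a (-1.68) between MSC+RAW-LPS and MSC+RAW, and Clec4a2 (1.14) between MSC+RAW and MSC. Between MSC+RAW and MSC, Clec4a1 (0.32), Clec4d (0.52), Clec4e (0.51) and Clec5a (0.25) turned positive, and Clec4a1 turned negative between MSC+RAW-LPS and MSC+RAW (-0.089).

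With library sizes from macrophage markers, 2790 genes were called between OVX and sham (93.9% higher), 7218 between MSC+RAW-LPS and MSC (94.8%, against 53.5%) and 10517 between MSC+RAW-LPS and MSC+RAW (96.6%, against 56.3%), and 11.3% were higher among those called between MSC+RAW and MSC. Clec4a1 was then called in MSC+RAW-LPS against MSC (1.17) and MSC+RAW (1.72). Signs turned for Clec4e between OVX and sham (0.094), for Clec4a3 (0.74), Clec4d (0.18) and Clec7a (0.47) between MSC+RAW-LPS and MSC, for Clec4a2 (0.24), Clec4d (0.85), Clec5a (0.44) and Clec7a (0.35) between MSC+RAW-LPS and MSC+RAW, and for Clec4a2 (-0.26) and Clec10a (-0.040) between MSC+RAW and MSC. Without Lyz2 in that list, a choice made after seeing the data, the counts were 3339, 3868 and 9151, and signs turned for Clec4d (0.013) and Clec4e (0.20) between OVX and sham, Clec4a3 (0.36) and Clec7a (0.11) between MSC+RAW-LPS and MSC, Clec4d (0.60), Clec5a (0.20) and Clec7a (0.11) between MSC+RAW-LPS and MSC+RAW, and Clec4a2 (-0.40), Clec7a (-0.0045) and Clec10a (-0.17) between MSC+RAW and MSC.

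Same-numbered OVX and sham libraries deviated together with correlations of 0.41, -0.03 and 0.35, so the numbers were not taken to pair them. With libraries kept apart, 3 of the 10 genes and 1818 genes in all were called between OVX and sham, without Clec4a2 (-0.999). With the closest pair of sham libraries counted as 1 sample it was 4 and 1419. With libraries kept apart and the replicate number as a block, 4 of the 10 genes, with Clec4a2 (-1.0003), and 2117 genes in all were called. In the MSC groups the replicate number could not serve as a block, because the column names of the co-cultures do not carry the labels' numbers, and a suffix that 1 column of each group carries was used in its place. Added after seeing the data, the number in the BMM column names that may mark a run, used as a block, left 3 of the 10 genes called, without Clec4a2 (-0.99), and the suffix of the MSC column names, used as a block, left 5, 7 and 2 called in the 3 MSC comparisons, the 7 with Clec7a (-1.03). With 1 to 3 samples per group and 12 to 14 counts of Mgl2 in MSC+RAW-LPS, small differences may have been missed. The smallest detectable difference was not computed.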
